A study of Mus musculus with 18 samples.

Results

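The H3K27me3 peaks on mouse chromosomes 1 to 19 were compared between fibroblasts that received the Cre recombinase and fibroblasts that received green fluorescent protein (GFP). Members were all autosomal intervals of the deposited H3K27me3 lists, 34064 peaks from GFP cells and 29328 from Cre cells. Together these were 63392 of the 72440 H3K27me3 peaks of both libraries. Chromosome X held another 1967 GFP and 7029 Cre peaks and was left out by the rule, as were 28 GFP and 24 Cre peaks on other sequences. Chromosome X thus took a larger part of the Cre list, and the part of this difference in the autosomal counts was not tested.

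The cells were mouse embryonic fibroblasts on a mixed B6;129 background, and both groups carried a conditional knockout allele of Rb, the retinoblastoma tumour suppressor gene. Adenovirus carrying Cre, which recombines the conditional allele, was set against adenovirus carrying GFP. Neither group received the factors that the labels call 4F, and the cells for histone marks were expanded for at most 3 passages. The series holds 18 samples, of which 8 have peak lists, 1 per library for 4 histone marks. The lists hold no measure of Rb itself, and the sources used here do not say how many embryos each library came from or whether both came from the same ones. With 1 library a side, a difference between embryos or cultures and an effect of Cre cannot be told apart in any result below.

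H3K27me3 is trimethylation of lysine 27 on histone H3. Polycomb repressive complex 2 writes it through its catalytic subunit EZH2, and it covers silent developmental genes, often as broad domains over clustered genes. Some promoters carry it together with H3K4me3, the mark of promoters that are active or poised. Rb restrains the E2F transcription factors, and EZH2 is among the known E2F targets. These statements are background and were not measured here.

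Each mark had 1 library a side, so differences between the lists could not be set against a spread between replicates, and no p-values are given. Intervals in parentheses after shares and ratios are exact 95% binomial intervals, which cover counting error only and treat neighbouring peaks as independent. Those after medians come from ranked values by the binomial distribution, with the same limits. The read depth was unknown. Scores are those the authors deposited, from 50.01 to 3233.06 in both lists. Counts and comparisons used them only to rank or filter peaks within a list. A raw score given for a region describes it in its own list, since scores of different lists have no shared scale. Positions are 1-based on build NCBIM37. Peaks are named by position alone, since the gene tables used here are on another build.

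The Cre list held fewer autosomal H3K27me3 peaks, and the shortfall lay in the narrow ones. Its ratio to the GFP list was 0.861 (0.848 to 0.875) by number. Among peaks under 1 kb, 10069 GFP peaks stood against 7553 Cre peaks, a ratio of 0.75 (0.728 to 0.773). The ratio was 0.864 between 1 and 2 kb and 0.957 between 2 and 5 kb. At 5 to 10 kb the lists held 1608 and 1595 peaks, a ratio of 0.992 (0.925 to 1.06), and at 10 kb or more 252 and 278, a ratio of 1.10 (0.927 to 1.31). The intervals of both widest classes included 1. The ratio by number was below 1 on all 19 autosomes, from 0.796 on chromosome 7 to 0.911 on chromosome 6.

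With fewer narrow peaks, the typical Cre peak was wider. The median width was 1343 bases in GFP and 1440 in Cre, with quartiles of 940 and 2264 against 987 and 2452. The Cre median was the wider on 19 of 19 chromosomes. The mean width was 1940 against 2083 bases. The bases under peaks came to 66.1 Mb in GFP and 61.1 Mb in Cre, a ratio of 0.924. This ratio ran from 0.854 on chromosome 7 to 1.01 on chromosome 14. The width difference of 97 bases depended on how many peaks were taken. With the GFP list cut to its 29328 highest-scoring peaks, the number in the whole Cre list, the Cre median was 87 bases narrower. This cut dropped low-scoring GFP peaks alone, and the lowest score decile of that list had a median width of 700 bases. A rise of the GFP median was therefore built into the cut.

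**Figure D1:**
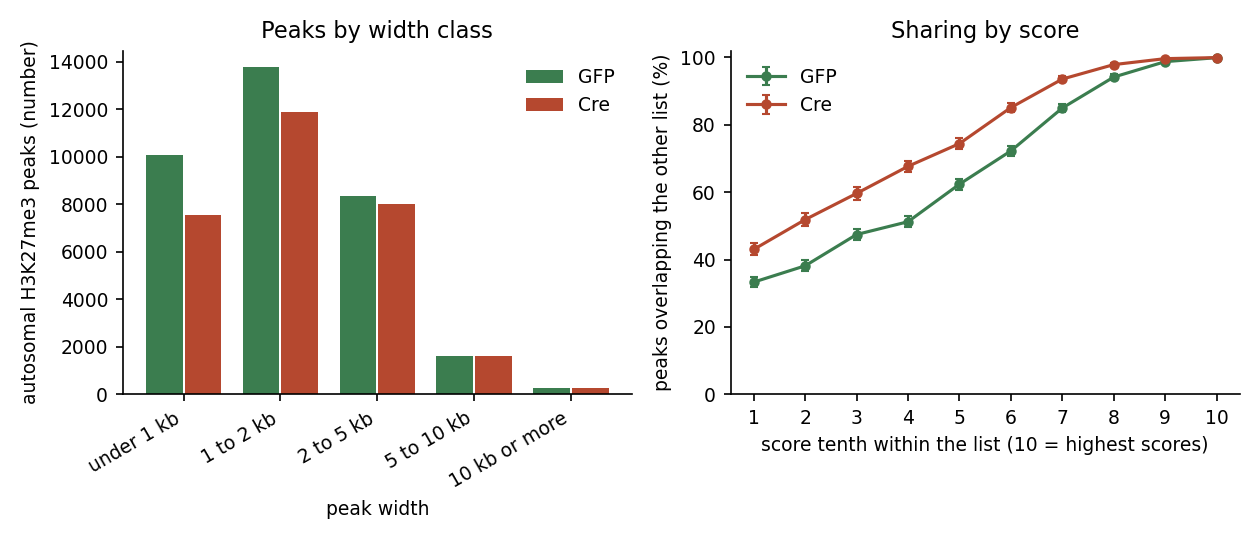
Numbers of autosomal H3K27me3 peaks by width class (kb) in the GFP and Cre lists. Beside them is the percent of peaks that overlapped the other list, by score decile within each list, with exact 95% binomial intervals. The lists differ most under 1 kb, with 10069 against 7553 peaks. Sharing climbs from 33.3% in GFP and 43.0% in Cre in the lowest decile to 99.94% and 99.97% in the highest.

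The broadest domains of both lists lay at the same places. The widest GFP peak, chr11:96023454-96055635, was 32182 bases wide with a score of 2174. The widest Cre peak, chr11:96023404-96060093, contained it and spanned 36690 bases, with the ceiling score of 3100. That 1 Mb of chromosome 11 was also the most covered in both lists, with 437.8 kb under GFP and 464.3 kb under Cre peaks. The next widest GFP peak was chr1:63289424-63319708, 30285 bases, which 2 Cre peaks covered to 99.96%. The second widest Cre peak, chr3:96132219-96166186, spanned 33968 bases, and 3 GFP peaks covered 98.6% of it. That domain also held 7 H3K4me3 peaks of the GFP and 8 of the Cre library.

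Single peaks of 15 kb or more were more numerous in Cre, 67 against 42, a ratio of 1.60 (1.07 to 2.41). All of them were marked in the other library too. GFP peaks covered a median of 98.2% of the length of the 67 Cre peaks, of which 50 lay over several GFP peaks, at most 7. Cre peaks covered a median of 99.4% of the length of the 42 GFP peaks, of which 15 lay over several Cre peaks, at most 5. After peaks within 1000 bases were joined in both lists, domains of 15 kb or more numbered 499 in GFP and 482 in Cre, a ratio of 0.966 (0.851 to 1.10). Joining across 10 kb gave 0.880 (0.827 to 0.937). These joined sets are far larger than the 67 and 42 single peaks, so they do not show what became of that excess. Joined within 1000 bases, domains of 50 kb or more numbered 14 in GFP and 16 in Cre, a ratio of 1.14 (0.523 to 2.53).

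A wide peak did not always score high in its own list. At chr17:45434474-45468257, 33784 bases wide and among the 5 widest Cre peaks, the score of 401.7 ranked 6665 among the 29328 Cre peaks.

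Where the lists overlapped, most domains were called as 1 peak in each. Overlapping peaks of both lists formed 19332 groups, and 14462 of them (74.8%) paired 1 GFP peak with 1 Cre peak. Several GFP peaks lay under 1 Cre peak in 2033 groups and 1 GFP peak over several Cre peaks in 1603, a ratio of 1.27 (1.19 to 1.35). Another 1234 groups held several of both. The gaps inside split domains were short in both directions, with medians of 175.5 bases between GFP pieces and 172.5 between Cre pieces. Among peaks of 10 kb or more, 65.8% (59.9 to 71.4) of Cre peaks and 46.0% (39.8 to 52.4) of GFP peaks lay over several peaks of the other list. With the GFP list cut to as many top-scoring peaks as the whole Cre list held, the ratio of 1.27 fell to 0.980 (0.915 to 1.05). Its direction thus rested on how many GFP peaks were taken.

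Among groups with a single Cre peak, the most GFP pieces lay at chr17:6360453-6383706, 1 Cre peak of 23254 bases over 6 GFP peaks. These GFP pieces held 20544 bases. Among groups with a single GFP peak, the peak chr9:114564234-114573128 of 8895 bases lay over the most Cre peaks, 5 with 9247 bases. Both domains were marked over much the same length in either library and written as different numbers of intervals.

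Sharing depended on width and score. Of the GFP peaks, 23253 or 68.3% (67.8 to 68.8) overlapped a Cre peak by at least 1 base. Of the Cre peaks, 22666 or 77.3% (76.8 to 77.8) overlapped a GFP peak. That left 10811 GFP-only peaks, 31.7% of the list, and 6662 Cre-only peaks, 22.7%. A peak in 1 list only means that the other list held no interval past the authors' threshold there. Under 1 kb, 41.2% of GFP and 51.1% of Cre peaks were shared. Between 5 and 10 kb only 5 GFP and 2 Cre peaks had no counterpart, and at 10 kb or more every peak of both lists had one. Sorted by score, 33.3% of the lowest decile of GFP peaks were shared and 99.94% of the highest decile. The same shares in the Cre list were 43.0% and 99.97%.

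By length, 46.3 Mb were marked in both libraries, which was 70.0% of the GFP bases and 75.7% of the Cre bases. Another 19.8 Mb were under GFP peaks alone and 14.8 Mb under Cre peaks alone. The bases in common made up 57.2% of the 80.9 Mb marked in either library. On the same measure H3K4me3 reached 74.5%, pan-acetylated H3 (H3Ac) 61.6% and H3K9me3, a heterochromatin mark, 18.5%. H3K27me3 therefore lay below H3K4me3 and H3Ac and above H3K9me3.

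The peaks of 1 list only were narrow and of low score. Their median score was 79.7 in GFP and 78.1 in Cre, against 202.7 and 202.6 for shared peaks. Their median width was 959 and 949 bases, against 1730 and 1742. Scores under 100 made up 69.5% of GFP-only and 71.4% of Cre-only peaks, but 23.2% and 24.1% of shared ones. GFP-only peaks lay a median of 3584 bases from the nearest Cre peak, and 26.4% of them lay within 1 kb of one. Cre-only peaks lay a median of 2363 bases from the nearest GFP peak, with 34.0% within 1 kb. Peaks more than 100 kb from any peak of the other list made up 7.28% of GFP-only and 6.36% of Cre-only peaks.

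A minority of the unshared peaks stood above the median score of their own list, 1698 GFP-only (15.7%) and 697 Cre-only peaks (10.5%). Of the shared peaks, 65.9% in GFP and 61.6% in Cre did so. The highest-scoring GFP-only peak was chr18:61187022-61193324, 6303 bases with a score of 947.3, and the nearest Cre peak was 341 bases away. The next, chr11:108843240-108848856, had 5617 bases and a score of 862. The highest-scoring Cre-only peak was chr11:111416622-111423192, 6571 bases with a score of 937.8, and the nearest GFP peak was 751 bases away. The next was chr2:18612122-18614920, 2799 bases with a score of 824.4. None of the first 3 of these regions overlapped an H3K4me3, H3Ac or H3K9me3 peak in either library. The last, on chromosome 2, overlapped H3Ac in both libraries, with scores of 690.4 in GFP and 355.5 in Cre. The Cre H3K4me3 peak chr2:18614701-18616112, with a score of 217.3, reached over 7.86% of this region. The GFP H3K4me3 peak chr2:18615011-18615815, with a score of 245.8, lay within that Cre peak but began past the end of the region. H3K4me3 was thus listed in both libraries at this site, and only the Cre peak met the region.

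Where 1 GFP peak matched 1 Cre peak, the edges showed little net shift in the lists as deposited. Over the 14462 pairs the left edge of the Cre peak lay a median of 3 bases farther out, with quartiles of -209 and 205, and the right edge 5 bases, with quartiles of -219 and 217. The sum of both shifts had a median of 2 bases, and its quartiles were -354.75 and 318. This median had an interval of -6 to 10 and its sign depended on the peaks taken: it was 16 (3 to 25) for scores of at least 100, -11 (-19 to -4) for lists of the same length by score and -58 (-77 to -42) after joining within 1000 bases. The Cre peak was the wider in 7253 pairs and the GFP peak in 7192. Single edges moved in both directions, and the median distance between matching edges was 212 bases, 12.7% of the median pair width of 1663.5 bases. The same distance was 100 bases for H3K4me3, 134 for H3Ac and 321.5 for H3K9me3. Of all edges, 75.7% lay within 500 bases of each other and 7.17% were over 1000 bases apart.

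Among the 1 to 1 pairs, edges lay closest together in the widest class. The median distance was 189 bases under 1 kb, 237 at 1 to 2 kb and 196 at 2 to 5 kb. It was 144 bases at 5 to 10 kb and 99 bases at 10 kb or more. Domains called as different numbers of peaks are not among these pairs. At 10 kb or more, 65.8% of Cre and 46.0% of GFP peaks lay over several peaks of the other list. Of the 76 pairs at 10 kb or more, 45 were wider in Cre and 31 in GFP. Both edges lay farther out in Cre in 3548 pairs and farther in in 3248, whereas 7592 pairs moved 1 edge each way. Spearman's rho between the left and right shifts was -0.106 over the pairs, which share their libraries. Its sign differed by width: -0.633 under 1 kb and -0.151 at 1 to 2 kb, but 0.106 at 2 to 5 kb. At 5 to 10 kb it was 0.0473, and at 10 kb or more 0.0555. The narrowest peaks had 461 bases in GFP and 436 in Cre, so a mean width under 1 kb bounds the sum of both shifts. Sorting by the pair's own width thus favours opposed shifts in the narrow classes. The change of sign with width is therefore not read as a trait of the edges. A pair wider by at least 1000 bases in Cre was found 879 times, 6.08% of pairs, and 1 narrower by that much 1101 times, 7.61%.

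**Figure D2:**
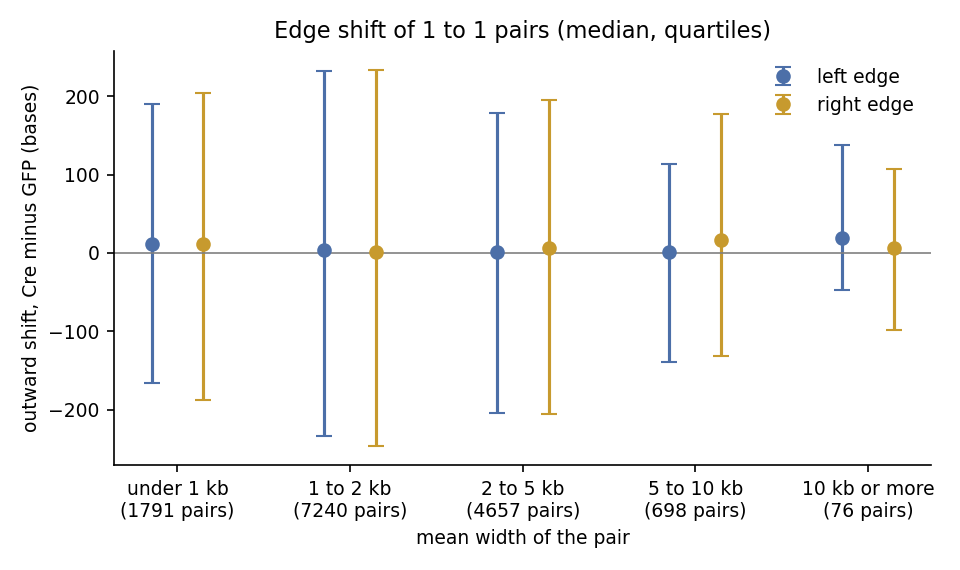
Outward shift of the left and right edge of the Cre peak relative to its GFP partner in 1 to 1 pairs, by width class of the pair. Shifts are in bases, positive where the Cre peak reaches farther out, with points at medians and bars at quartiles. The medians lie near 0 in every class.

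Single pairs departed far from this. The largest outward move was at chr15:78188156-78189648, a GFP peak of 1493 bases, where the Cre peak chr15:78185530-78191507 had 5978. Its percentile rank by score among the pairs of each list went from 37.8 to 85.6. The largest inward move was at chr7:131820080-131826962, a GFP peak of 6883 bases with a score of 1146. The Cre peak there, chr7:131825555-131826386, had 832 bases and a score of 66.1, so that its rank went from 94.0 to 8.95, the largest fall of all pairs. No peak of the other 3 marks overlapped that region in either library.

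Neighbouring domains sometimes differed together. On chromosome 11 the GFP list held chr11:108832527-108840528, 8002 bases with a score of 957.8, beside the GFP-only peak of 5617 bases named above. The Cre list held only chr11:108836164-108838417 in the first of them, 2254 bases with a score of 405.7. The GFP peaks there came to 13.6 kb against 2.25 kb in Cre. The opposite was seen near 75 Mb on chromosome 2, where 5 GFP peaks with scores from 60.3 to 134.3 covered 5.07 kb and 8 Cre peaks with scores of up to 555.0 covered 18.1 kb. Within it, the GFP peak chr2:75016527-75017276 of 750 bases matched a Cre peak of 4606 bases. Across the autosomes, the change in rank of a pair and of the next pair within 5 kb had a Spearman's rho of 0.140 over 5002 neighbours, and 0.0207 over the 532 neighbours at 1 Mb or more. Neighbours share the same libraries and may share local sequence composition.

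The order of domains by score was largely retained. Scores were ranked within each list over the pairs, as a percentile, and Spearman's rho between the libraries was 0.748 over 14462 pairs. On the same measure it was 0.943 over 16635 pairs for H3K4me3, 0.862 over 29733 for H3Ac and 0.444 over 1338 for H3K9me3. The rank moved by at most 10 points in 48.7% of pairs. It rose by at least 25 points in Cre in 1480 pairs, 10.2%, and fell by that much in 1506, 10.4%. The strongest domains held their place best: of the highest quintile in GFP, 82.8% were in the highest quintile in Cre and 11 pairs were in the lowest. In the middle quintile 33.0% kept their place. Few peaks had a score at or above the ceiling of 3100, 144 in GFP and 288 in Cre.

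**Figure D3:**
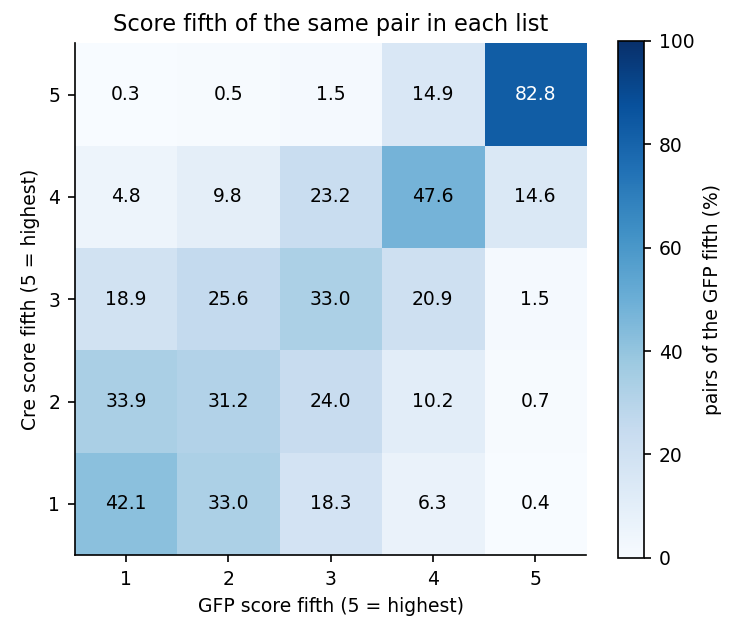
Share (percent) of 1 to 1 H3K27me3 pairs in each quintile of the Cre score ranking, for each quintile of the GFP score ranking. The highest quintile keeps 82.8% of its pairs and the lowest 42.1%.

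Pairs that also bore H3K4me3 stood higher in the Cre ranking. An H3K4me3 peak of both libraries overlapped 1421 of the pairs, and 899 of these, 63.3% (60.7 to 65.8), ranked higher by H3K27me3 score in Cre. Among the 12133 pairs with H3K4me3 in neither library the share was 48.9% (48.0 to 49.8), and over all pairs 50.6%. The median change was 2.18 percentile points with H3K4me3 and -0.31 without. Rises of at least 25 points numbered 139 with H3K4me3, 9.78%, and falls 62, 4.36%. Without it there were 1249 rises, 10.3%, and 1376 falls, 11.3%. Pooled over all ranks, the share of large rises with H3K4me3 lay near the 10.2% over all pairs. The share of large falls lay below the 10.4% over all pairs. Pairs with H3K4me3 in the Cre list alone numbered 507, with 53 rises (10.5%) and 23 falls (4.54%). Those with it in the GFP list alone numbered 401, with 39 rises (9.73%) and 45 falls (11.2%). The share with H3K4me3 was above the share without on 19 of 19 chromosomes and above 50% on 18, chromosome 16 being at 50%.

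H3K4me3-bearing pairs were of higher rank and wider, so they were also compared at like rank. By quintiles of the mean rank from lowest to highest, 56.8%, 57.7%, 66.4%, 65.9% and 62.9% ranked higher in Cre. Pairs without H3K4me3 gave 50.3%, 50.3%, 48.5%, 49.5% and 44.8%. In the lowest 2 quintiles the intervals of the H3K4me3-bearing pairs reached below 50%. By quintile, large rises with H3K4me3 numbered 11 of 88, 47 of 156, 59 of 229, 21 of 352 and 1 of 596. Without H3K4me3 they numbered 212 of 2734, 554 of 2607, 404 of 2501, 78 of 2307 and 1 of 1984. Large falls numbered 9, 24, 21, 7 and 1 with H3K4me3, and 228, 580, 451, 117 and 0 without. Large rises were thus more frequent with H3K4me3 at like rank, except in the highest quintile, where large moves hardly occurred. Cre peaks were the wider in 838 of the 1421 H3K4me3-bearing pairs and the narrower in 582. With H3Ac of both libraries, 395 of 664 pairs or 59.5% (55.6 to 63.2) ranked higher in Cre, against 50.1% of the 13201 pairs with H3Ac in neither. Of the 133 pairs with H3Ac in the GFP list alone, 24 (18.05%) rose by at least 25 points and 10 (7.52%) fell. Of the 464 with H3Ac in the Cre list alone, 34 (7.33%) rose and 40 (8.62%) fell. The H3K4me3 lists themselves differed, with 22967 peaks over 38.9 Mb in GFP and 21850 over 41.9 Mb in Cre. Their median scores, 574.2 in GFP and 898.3 in Cre, have no shared scale and do not show a stronger mark in either library. The part of these differences in the result was not tested. Over the 1421 pairs the change in H3K4me3 rank and the change in H3K27me3 rank had a Spearman's rho of -0.113, as a description of libraries that share their cells.

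**Figure D4:**
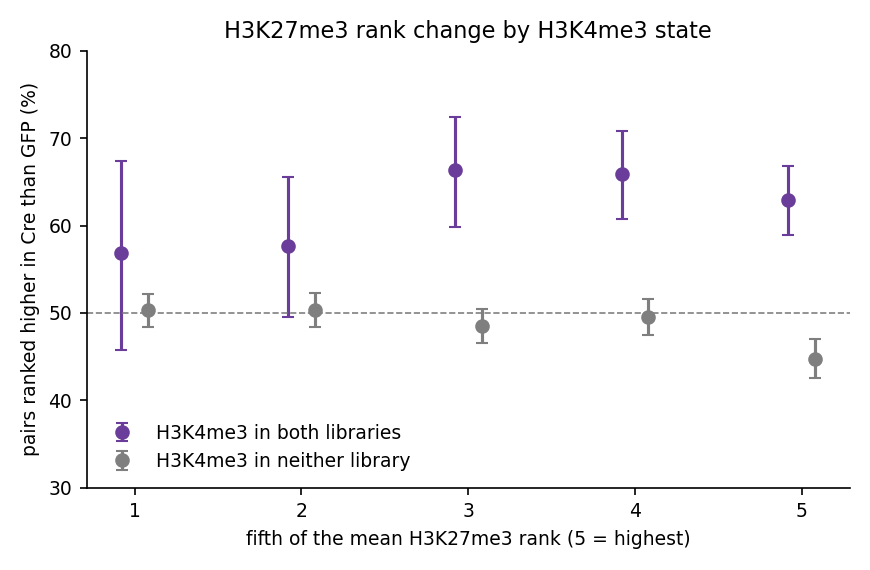
Percent of 1 to 1 H3K27me3 pairs that rank higher by score in the Cre library, by quintile of the pair's mean rank, for pairs with an H3K4me3 peak in both libraries and in neither; bars are exact 95% binomial intervals. Pairs with H3K4me3 lie at 56.8% to 66.4%, and pairs without at 44.8% to 50.3%.

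The pair with the largest rise in rank was among them. The GFP peak chr2:18599812-18600398 had 587 bases and a score of 53.1, and the Cre peak chr2:18599403-18602318 had 2916 bases and a score of 736.5. Its rank went from 2.06 to 86.3. H3K4me3 over it was at the ceiling score of 3100 in both libraries, and H3Ac scored 1114 in GFP and 589 in Cre. The stretch around it held 3 GFP peaks with 5.52 kb and 5 Cre peaks with 14.3 kb, the Cre-only peak at chr2:18612122-18614920 included, and 8 H3K4me3 peaks in each library. The second largest rise, chr4:34012611-34013243 with a score of 53.0 against 714.6 in Cre, overlapped no peak of the other marks. Among the 5 largest falls, chr3:83564761-83567925 went from a rank of 77.2 to 0.996. H3Ac over it scored 69.8 in GFP and 472 in Cre, and H3K4me3 scored 143.5 in GFP with no peak in Cre. The other 4 of these falls overlapped no H3Ac peak, but neither did 13201 of all 14462 pairs. Among these 4, chr5:108864085-108868278 met H3K4me3 in the Cre list alone, at the ceiling of 3100 and over 1.98% of its length.

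Peaks of 1 list only rarely bore the other marks. H3K4me3 of the same library overlapped 11.1% of shared GFP peaks and 2.67% (2.38 to 2.99) of GFP-only peaks. In the Cre library it overlapped 11.5% of shared and 4.61% (4.12 to 5.14) of Cre-only peaks. In turn, H3K27me3 peaks with H3K4me3 were shared more often, 89.9% of 2859 such GFP peaks against 66.3% of the others, and 89.5% of 2920 such Cre peaks against 75.9%. Width moved with this, as peaks with H3K4me3 were wider. Among GFP peaks the shares with and without H3K4me3 were 65.5% and 40.3% under 1 kb, and 84.2% and 66.6% at 1 to 2 kb. Among Cre peaks they were 52.4% and 51.0% under 1 kb, and 85.8% and 76.3% at 1 to 2 kb. At 10 kb or more, 89 GFP peaks (35.3%) and 118 Cre peaks (42.4%) held H3K4me3.

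Acetylation at unshared peaks was more often found in Cre. At GFP-only peaks, H3Ac was present in the Cre list but not the GFP list at 157 peaks, 1.45%, and the reverse at 28, 0.259%. Shared GFP peaks showed the same direction, 605 (2.60%) against 178 (0.765%). At Cre-only peaks the numbers were 82 (1.23%) and 57 (0.856%). Over all GFP peaks the shares were 2.24% and 0.605%, and over all Cre peaks 2.34% and 0.774%. The direction was therefore not particular to peaks without a Cre counterpart. H3K4me3 was present in Cre alone at 87 GFP-only peaks (0.805%) and in GFP alone at 127 (1.17%). At shared GFP peaks these numbers were 683 (2.94%) and 671 (2.89%), and at Cre-only peaks 59 (0.886%) and 99 (1.49%). The same H3K4me3 shares were 2.26% and 2.34% over all GFP peaks and 2.58% and 2.54% over all Cre peaks.

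Along the autosomes, coverage by 1 Mb windows was similar in order and lower in Cre as deposited. Of 1852 windows, 1191 held at least 10 peaks of both lists together, and the median Cre to GFP ratio of covered bases was 0.926, with quartiles of 0.788 and 1.09. With the GFP list cut to as many highest-scoring peaks as the whole Cre list held, it was 0.984 (0.968 to 1.00), an interval that reaches 1. Cre was higher in 445 windows and GFP in 745. Spearman's rho of coverage was 0.954 over these windows, which share mappability and gene content. Coverage was at least 1.5-fold higher in Cre in 67 windows, 5.63%, and in GFP in 152, 12.8%. Among windows ordered by peak number, the lowest quartile had a median ratio of 0.981 and the highest 0.905.

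**Figure D5:**
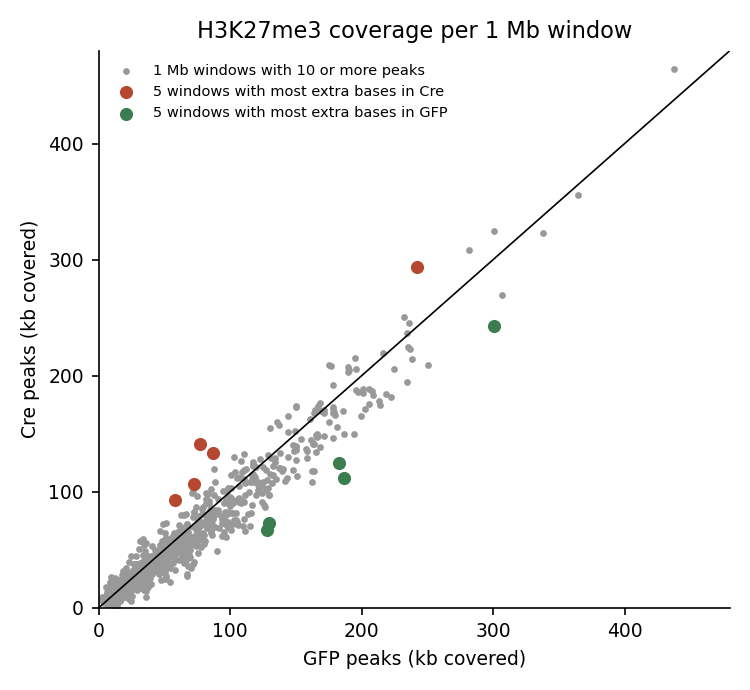
Bases (kb) under autosomal H3K27me3 peaks per 1 Mb window in the GFP and Cre libraries, for the 1191 windows with at least 10 peaks. Coloured points are the 5 windows with the most extra bases in each direction, and the line marks equal coverage. The median Cre to GFP ratio is 0.926, with 67 windows at least 1.5-fold higher in Cre and 152 in GFP.

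The largest gain of covered bases in Cre lay at 24 to 25 Mb of chromosome 14, where 48 GFP peaks covered 77.0 kb and 64 Cre peaks 141.5 kb. Of these, 34 Cre peaks (53.1%) were Cre-only and 9 GFP peaks (18.8%) GFP-only, against 22.7% and 31.7% over the autosomes. The next megabase of chromosome 14 went from 57.8 to 93.2 kb. On chromosome 2, 74 to 75 Mb went from 242.3 to 293.5 kb and 75 to 76 Mb from 86.8 to 133.8 kb. The 4 windows thus formed 2 adjoining pairs.

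The largest loss lay at 61 to 62 Mb of chromosome 9, where 112 GFP peaks covered 186.3 kb and 71 Cre peaks 112.2 kb, with 51 GFP-only (45.5%) and 11 Cre-only (15.5%) peaks. In the megabase of chromosome 6 that starts at 100 Mb coverage went from 128.3 to 67.4 kb, with 35 GFP-only (56.5%) and 4 Cre-only (11.4%) peaks. The window at 28 to 29 Mb of chromosome 2 went from 300.5 to 242.9 kb. These losses were spread over many peaks rather than a single domain. Chromosome 2 thus held windows among the largest differences in both directions.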

How the data were processed

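Chromatin immunoprecipitation and sequencing gave 1 H3K27me3 library from Cre and 1 from GFP cells. Per the submitters' processing notes, the build was NCBIM37 and the tools included the peak caller MACS 1.4.1, the aligner BWA, bedtools 2.16.2 and SAMtools 0.1.18, with no word on which tool served which file. Each deposited list gives intervals and a score with no unit, and the sources used here do not name its control. By the labels, the input of the GFP cells carries number 1, whereas the Cre input and both H3K27me3 libraries carry number 3. Because a score moves with depth and control, scores were ranked only within a list.

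Peaks of both lists were matched by an overlap of at least 1 base, and widths, shares, groups of overlapping peaks, edges, ranks and 1 Mb windows were computed in Python 3.11.15 with SciPy 1.17.1, pandas 2.3.3 and NumPy 2.4.6, and drawn with matplotlib 3.10.9. The steps were tested on simulated lists with known overlaps and shifts. Named regions were the leading 5 (for split domains 3) by width, score, edge shift, rank change or window difference. The members and lists were chosen with earlier results of these data known. Values had been seen when the split of pairs by H3K4me3 and H3Ac, the 15 kb limit and the stretches on chromosomes 2 and 11 were chosen. Gene lists were left out, since the available gene tables use another build. Alternatives were a minimum score of 100, joining within 1000 bases, an overlap of 50%, equal numbers of top-scoring peaks, pairs of at least 2000 bases, and leaving out pairs at the score ceiling. For equal numbers the H3K27me3 list of Cre was kept whole and that of GFP was cut to its 29328 highest-scoring peaks.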

Additional observations from a re-analysis of the deposited data

Results flagged for a closer look

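Chromosome X, which the autosomal comparison leaves out, held 7029 of the Cre library's H3K27me3 peaks and 1967 of the GFP library's. It is given here because it is a signal outside the autosomal measurement that was higher in the Cre library than in the GFP control, whereas the autosomes held fewer peaks in Cre. Its part in the autosomal numbers was not tested. The sources used here do not say whether both libraries came from the same embryos, so a difference between embryos and an effect of Cre cannot be told apart.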

How the results depend on the processing

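No paired analysis was possible because each group had 1 library and no test was run, although both carry the same replicate number. For 16 results, 63 alternatives were computed, and 3 turned the direction of a value whose interval lay clear of no difference. Equal numbers of top-scoring peaks, a cut of the GFP list alone, turned the median width difference to -87 bases. The same cut turned the ratio of joined to split domains to 0.980. Joining within 1000 bases turned the ratio of peaks of 15 kb or more to 0.966. The intervals of both ratios then included 1. The sum of edge shifts, near 0 as deposited, took both signs. The causes were not tested. The alternatives for windows, peaks of 15 kb or more, edge distance, Cre-only peaks with H3K4me3 and pairs by H3K4me3 were chosen after seeing the data.

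A minimum score of 100 gave a peak ratio of 0.904, a covered-length ratio of 0.949, shared peaks of 73.9% (GFP) and 79.7% (Cre), shared bases of 59.7%, an edge sum of 16 bases (3 to 25), a rho of ranks of 0.762, Cre-only peaks with H3K4me3 at 6.19% and a window ratio of 0.956. Joining within 1000 bases gave a covered-length ratio of 0.919, shared peaks of 66.1% and 76.5%, shared bases of 59.4%, a width difference of 197 bases, a ratio of joined to split domains of 1.06, an edge sum of -58 bases (-77 to -42), an edge distance of 362 bases, 60.6% of pairs with H3K4me3 higher in Cre and a window ratio of 0.912. An overlap of at least 50% gave shared peaks of 60.5% and 69.5%, shared bases of 55.4%, and H3K4me3 on 1.46% of GFP-only and 2.10% of Cre-only peaks. Equal numbers gave a covered-length ratio of 0.976, both shared shares at 73.8%, shared bases of 57.9%, an edge sum of -11 bases (-19 to -4) and a window ratio of 0.984 (0.968 to 1.00). Pairs of at least 2000 bases had an edge distance of 154 bases, and without pairs at the score ceiling the rho of ranks was 0.741. The share of H3K4me3-bearing pairs higher in Cre stayed between 60.6% and 64.4% over its alternatives, and that of pairs without H3K4me3 between 48.2% and 49.1%. Read depth was unknown, so a peak in 1 list only can lie just under the threshold of the other.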

Other observations

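Some of the widest peaks found in 1 list only had low scores or lay over other marks. The widest GFP-only peak, chr8:19893999-19902880, had 8882 bases and a score of 145.6, and H3K4me3 over it scored 3027 in GFP and 3100 in Cre, with H3Ac at 1871 and 1441. The next, chr17:29239512-29245829, had 6318 bases and a score of 139.3. In the GFP library H3K4me3 peaks covered 99.95% of it with a score of 903.2, and no Cre H3K4me3 peak lay there, while H3K9me3 peaks overlapped it in both libraries with scores of 179.0 in GFP and 199 in Cre. At chr12:20234634-20240569, a GFP-only peak of 5936 bases, 1 GFP H3K4me3 peak with a score of 1406 covered it whole, as did 1 Cre H3K9me3 peak with a score of 91.0. The second widest Cre-only peak, chr8:20028714-20035179, had 6466 bases, a score of 51.7 and no other mark. The peaks chr18:61187022-61193324, chr11:108843240-108848856 and chr11:111416622-111423192 were among both the widest and the highest-scoring unshared peaks.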
